A study of Mus musculus with 6 samples.

Results

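Endothelial cells line blood and lymph vessels, and the 10 genes described here are commonly read as their markers: Pecam1, Cdh5, Kdr, Emcn, Tie1, Tek, Egfl7, Esam, Cldn5 and Eng. They were taken by symbol from a gene table of 17666 genes, and all 10 were present. The values come from RNA sequencing of mouse chondrocytes in culture, with 3 KO and 3 WT libraries. Knee joints of mice at P0, the day of birth, had been digested and the chondroprogenitors sorted for GFP. Per the growth protocol in the labels they were then kept in DMEM until mature, a step the series' design text does not mention. The KO mice are given as Ppp1r15bPrx1;Rosa26mT/mG, where Ppp1r15b, which encodes the eIF2alpha phosphatase subunit CReP, was deleted by Prx1-Cre, and the WT mice as Prx1-Cre;Rosa26mT/mG. By these genotypes both groups carried the Cre driver and the mT/mG reporter, which turns from red to green where Cre has acted. The library titles name Prx1 for the KO libraries only. Prx1-Cre acts in early limb mesenchyme, which forms cartilage, bone lining and connective tissue but in general not the vessel lining, so the green gate would remove most endothelial cells. Whether the 3 replicates of a genotype are different animals or different cultures is not stated, so a p-value here reflects only how far these libraries scatter, and that scatter may be technical.

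Endothelial cells are held together at their junctions by VE-cadherin (Cdh5), PECAM-1 (Pecam1), claudin 5 (Cldn5) and ESAM (Esam). They respond to VEGF through the receptor VEGFR2 (Kdr) and to angiopoietins through TIE2 (Tek), whose relative TIE1 (Tie1) modulates it. Endoglin (Eng) is a co-receptor for ligands of the BMP and TGF-beta family, endomucin (Emcn) is a surface sialomucin of veins and capillaries, and EGFL7 (Egfl7) is a secreted factor. Growth plate cartilage itself holds no vessels. Some of these genes are not restricted to endothelium: endoglin, as CD105, is also a surface marker of mesenchymal stromal cells.

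Each library held 18380880 to 19581607 estimated counts in KO and 18757808 to 19643951 in WT. Ppp1r15b had 355, 428 and 557 counts in KO replicates 1 to 3, against 1707, 960 and 1675 in WT replicates 1 to 3, and its log2 fold change was -1.70 (SE 0.242, edgeR adjusted p = 0.0297). The labels do not name the part of the gene that was deleted. Chondrocyte markers were abundant throughout, with a summed level over 12 genes of 39330 to 40990 CPM (counts scaled to library size) in KO and 36270 to 48530 CPM in WT. Col2a1, their most abundant gene, was at 25950 ± 1014 CPM in KO and 30230 ± 4497 CPM in WT (SD, n = 3 each), so the sum rests mostly on it. Of the 12 genes 2 rose, Col9a2 (edgeR adjusted p = 0.04965) and Col11a2 (0.04663), where 0.884% of all genes rose. In 5 of the 12 every KO library lay above every WT library, beside 14% of all genes. KO replicate 3 stood apart from KO replicates 1 and 2. The chi-square per degree of freedom between libraries was 132 and 134 for the pairs that include it and 5.01 between the other two, against 3.12 to 16.8 among WT pairs. Counts of called genes below are therefore given with and without that library for the members and most lists, but not for every gene named.

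Egfl7 has several promoters, and the counts of its transcripts differed greatly between them, so its 3 start windows are shown first. Each window runs from 250 bases before a RefSeq transcript start to 50 bases after it, on the plus strand of chromosome 2 in GRCm38.p6, printed 5′ to 3′. Capitals mark the hexamers AGGAAG or CGGAAG on either strand (CTTCCT or CTTCCG when read in reverse), which hold the GGAA core bound by ETS factors such as ERG, and AGATAA on either strand (TTATCT in reverse), a GATA motif. The first 2 motifs share GGAAG but cannot match at the same position.
Egfl7 window 1 (chr2:26580833-26581132): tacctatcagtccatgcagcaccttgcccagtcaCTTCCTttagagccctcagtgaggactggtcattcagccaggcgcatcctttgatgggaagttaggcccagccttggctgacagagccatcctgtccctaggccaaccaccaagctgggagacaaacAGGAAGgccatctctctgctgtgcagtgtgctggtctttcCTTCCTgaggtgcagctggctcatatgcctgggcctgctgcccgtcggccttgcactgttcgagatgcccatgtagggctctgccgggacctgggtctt
Egfl7 window 2 (chr2:26583615-26583914): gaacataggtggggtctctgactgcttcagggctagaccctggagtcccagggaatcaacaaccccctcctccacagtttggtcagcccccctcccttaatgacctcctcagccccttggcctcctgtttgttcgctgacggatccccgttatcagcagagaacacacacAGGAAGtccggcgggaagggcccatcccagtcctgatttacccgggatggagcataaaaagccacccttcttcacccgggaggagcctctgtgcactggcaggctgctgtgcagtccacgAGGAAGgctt
Egfl7 window 3 (chr2:26586386-26586685): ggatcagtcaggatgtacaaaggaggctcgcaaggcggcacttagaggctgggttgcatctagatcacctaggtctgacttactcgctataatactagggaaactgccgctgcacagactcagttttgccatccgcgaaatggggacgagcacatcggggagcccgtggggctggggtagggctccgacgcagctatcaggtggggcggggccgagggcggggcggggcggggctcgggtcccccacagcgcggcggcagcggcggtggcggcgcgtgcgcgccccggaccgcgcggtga
The paralogues Tie1 and Tek are shown beside them because their counts behaved differently across libraries; Tie1 is on the minus strand and Tek on the plus strand of chromosome 4.
Tie1 (chr4:118489800-118490099): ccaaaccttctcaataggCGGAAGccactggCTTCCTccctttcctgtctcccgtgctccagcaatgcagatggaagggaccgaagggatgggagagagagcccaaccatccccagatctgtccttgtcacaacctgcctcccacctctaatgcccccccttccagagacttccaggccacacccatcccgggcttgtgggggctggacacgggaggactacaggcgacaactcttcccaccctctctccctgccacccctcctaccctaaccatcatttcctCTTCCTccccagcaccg
Tek (chr4:94739039-94739338): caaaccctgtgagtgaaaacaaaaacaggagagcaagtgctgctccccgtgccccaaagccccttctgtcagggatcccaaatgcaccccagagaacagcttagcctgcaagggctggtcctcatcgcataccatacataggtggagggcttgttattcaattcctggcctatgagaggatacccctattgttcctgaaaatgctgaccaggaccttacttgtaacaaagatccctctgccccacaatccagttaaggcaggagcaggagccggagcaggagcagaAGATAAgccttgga

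Window 1 of Egfl7 held 3 AGGAAG matches, window 2 held 2 and window 3 held 0. Window 3 had 31 CpG dinucleotides, more than 89.4% of all 32851 promoter windows of the RefSeq table, against 5 in window 1 and 8 in window 2 (median of all windows 7). Tie1 held 2 AGGAAG and 1 CGGAAG match and no AGATAA, and Tek held neither ETS hexamer but 1 AGATAA. Over the 7 members with a promoter in the table, 5 of 9 windows held AGGAAG or CGGAAG, beside 46.5% of all windows, and AGATAA stood in 1 of 9 windows against 11.2% of all. A match describes these letters and does not show that a factor binds.

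The 10 genes spanned a wide range of levels, compared here in the authors' TPM values, which correct for transcript length. Eng was the most abundant, at 49.2 ± 7.47 TPM in KO and 58.1 ± 2.99 TPM in WT (SD, n = 3 each). Egfl7 followed with 10.8 ± 0.465 TPM in KO and 10.7 ± 1.90 TPM in WT, and Tek with 2.02 ± 1.32 TPM in KO and 2.17 ± 0.339 TPM in WT. The WT ranges of Eng, Egfl7 and Tek did not overlap with each other. Below them the WT means ran in the order Emcn (1.25 TPM), Cdh5 (1.01), Pecam1 (0.853), Kdr (0.597), Cldn5 (0.570), Esam (0.383) and Tie1 (0.290), and the WT range of each of these overlapped with that of its neighbours, Emcn with Tek included. These last 7 genes stayed under 50 counts in every library, so single libraries carry wide counting error for them.

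**Figure D1:**
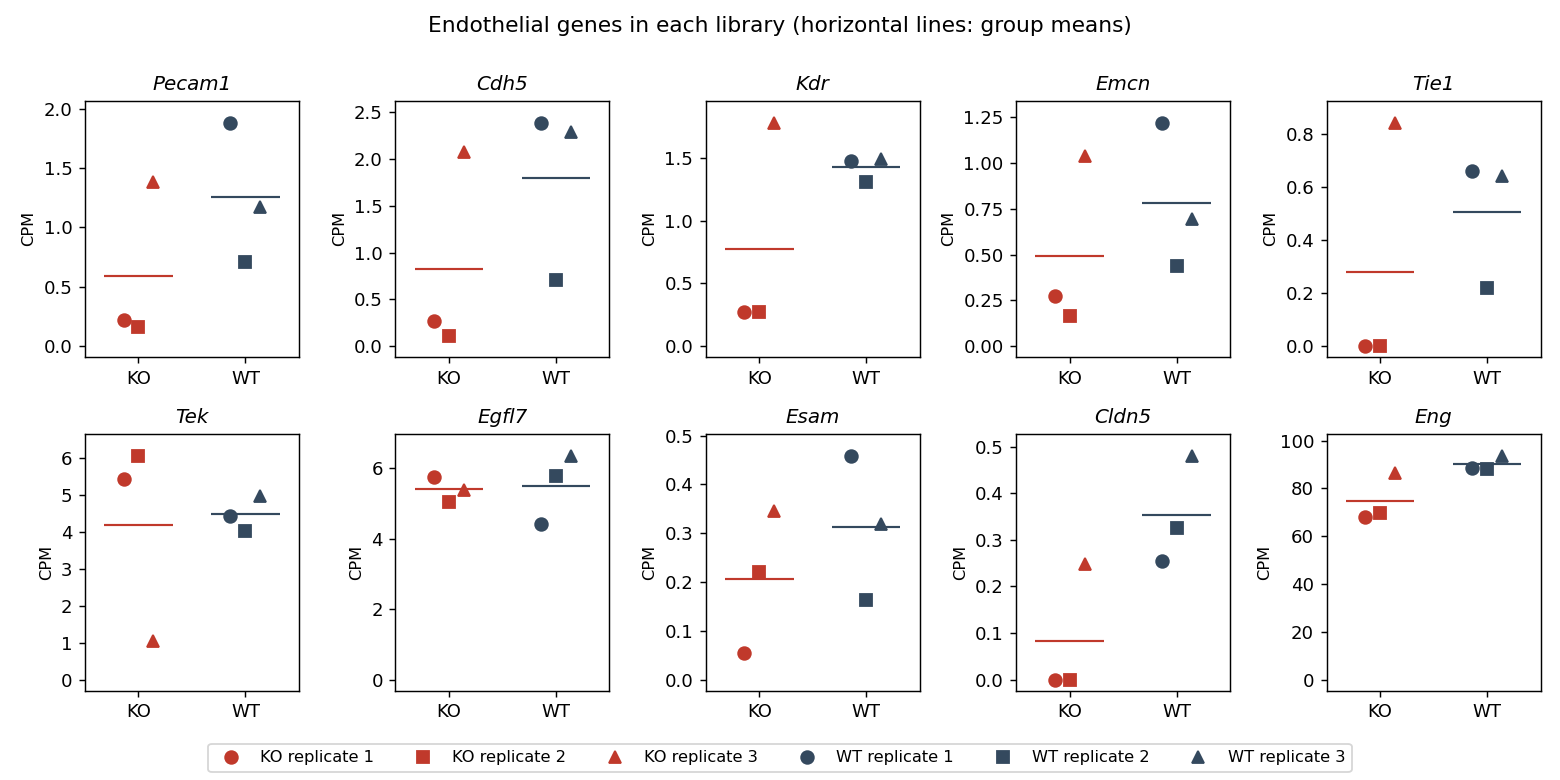
Level of each of the 10 endothelial genes in CPM (vertical axes, linear, 0 included) in the 3 KO and 3 WT libraries, with the marker shape giving the replicate number and the horizontal line the group mean. In Pecam1, Cdh5, Kdr, Emcn, Tie1, Esam and Cldn5 KO replicate 3 was the highest KO library, in Tek it was the lowest of all 6 libraries, and Egfl7 lay between 4.42 and 6.34 CPM throughout.

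The 4 junction genes were low in every library and lowest in KO replicates 1 and 2 or, for Esam, in KO replicate 1. Pecam1 (Entrez gene 18613, chr11:106654213-106715281, minus strand) had 4, 3 and 28 counts in KO replicates 1 to 3, against 37, 13 and 22 counts in WT replicates 1 to 3. For Cdh5 (12562, chr8:104101613-104144504, plus strand) the counts were 5, 2 and 42 in KO and 47, 13 and 43 in WT. In both genes the groups overlapped, since KO replicate 3 lay within the WT range, and WT replicate 2 was the lowest WT library. Cldn5 (12741, chr16:18776847-18778262, plus strand), the barrier-forming claudin of vessels, had 0, 0 and 5 counts in KO and 5, 6 and 9 counts in WT. After scaling every KO library of Cldn5 lay below every WT library, by a narrow gap between KO replicate 3 (0.247 CPM) and WT replicate 1 (0.254 CPM). A count of 0 allows up to 3 counts, which is 0.163 CPM in KO replicate 1. Esam (69524, chr9:37528089-37538319, plus strand) had 1, 4 and 7 counts in KO and 9, 3 and 6 counts in WT, with overlapping groups.

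Among the receptors, Kdr and Tie1 followed the junction genes and Tek did not. Kdr (16542, chr5:75932827-75979072, minus strand) had 5, 5 and 36 counts in KO, against 29, 24 and 28 counts in WT. Its WT libraries lay close together (1.42 ± 0.103 CPM, SD, n = 3), and KO replicate 3 lay above all of them at 1.78 CPM. Tie1 (21846, chr4:118471191-118489849, minus strand) had 0, 0 and 17 counts in KO and 13, 4 and 12 counts in WT, so that all of its KO counts came from KO replicate 3. Tek (21687, chr4:94739086-94874976, plus strand) ran the other way, with 100, 110 and 21 counts in KO and 87, 74 and 93 counts in WT. KO replicate 3 was thus the lowest library for Tek and the highest for Tie1 and Kdr. The difference between Tek and the other receptors was not tested.

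Eng, the TGF-beta family co-receptor, and the surface and secreted proteins Emcn and Egfl7 differed from one another. Eng (13805, chr2:32646595-32682669, plus strand) had 1255, 1267 and 1749 counts in KO, against 1744, 1619 and 1753 counts in WT. Scaled to depth these were 68.2, 69.5 and 86.5 CPM in KO and 88.7, 88.1 and 93.4 CPM in WT, so every KO library lay below every WT library, with KO replicate 3 close to the WT range. Emcn (59308, chr3:137341062-137431069, plus strand) had 5, 3 and 21 counts in KO and 24, 8 and 13 counts in WT. It shared the order of the junction genes, with KO replicates 1 and 2 lowest. Egfl7 (353156, chr2:26581083-26592682, plus strand) had 106, 92 and 109 counts in KO and 87, 106 and 119 counts in WT, and its groups overlapped throughout.

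No endothelial gene was called between KO and WT. The edgeR quasi-likelihood test on all 6 libraries called 0 of 8 tested members at an adjusted p under 0.05, where 2.51% of the 13692 genes tested were called, 0.884% higher and 1.63% lower. Esam and Cldn5 had too few counts to be tested. At an unadjusted p under 0.05 there was 1 member, Eng, which was lower, where 19.2% of all genes passed, 9.29% higher and 9.9% lower. DESeq2 also called 0 of the 8, where 3.64% of all genes were called higher and 4.93% lower. Of the 8, only Eng had every KO library below every WT library, which held for 14.5% of genes tested. The log2 fold change of Eng was -0.27 (95% interval -0.53 to -0.0092, adjusted p = 0.248). All 8 estimates were below 0, with a median of -0.72 beside 0.01 over all genes tested.

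The intervals show what these libraries can and cannot exclude. For Egfl7 the log2 fold change was -0.03 (95% interval -0.49 to 0.43, edgeR adjusted p = 0.958), so a change of 1 log2 unit in either direction lies outside it. Tek, at -0.10, had an interval of -1.54 to 1.33. For Cdh5 (-1.11, interval -3.54 to 1.32), Pecam1 (-1.06, -3.08 to 0.95), Kdr (-0.85, -2.64 to 0.93), Tie1 (-0.80, -3.89 to 2.30) and Emcn (-0.65, -2.44 to 1.15) a large decrease and a moderate increase were both inside the interval. The edgeR adjusted p of these 5 genes lay between 0.545 (Pecam1) and 0.792 (Tie1).

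These results depended on KO replicate 3. Without it, 5 of the 8 tested members fell (edgeR adjusted p under 0.05), where 16.1% of 13880 genes tested fell in the same fit and 12.5% rose. The 5 were Kdr (log2 fold change -2.35, SE 0.367, adjusted p = 0.00321), Eng (-0.38, SE 0.0603, adjusted p = 0.00328), Pecam1 (-2.68, SE 0.599, adjusted p = 0.0144), Cdh5 (-3.19, SE 0.722, adjusted p = 0.015) and Tie1 (adjusted p = 0.0191). Tie1 then had 0 counts in both remaining KO libraries, and against 3 counts per library it was at least 3.09-fold lower than the WT mean. Emcn had a log2 fold change of -1.82 (adjusted p = 0.0639), Tek of 0.36 (adjusted p = 0.151) and Egfl7 of -0.02 (adjusted p = 0.943). These calls rest on 2 KO libraries, and 28.5% of all genes were called in that fit.

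**Figure D2:**
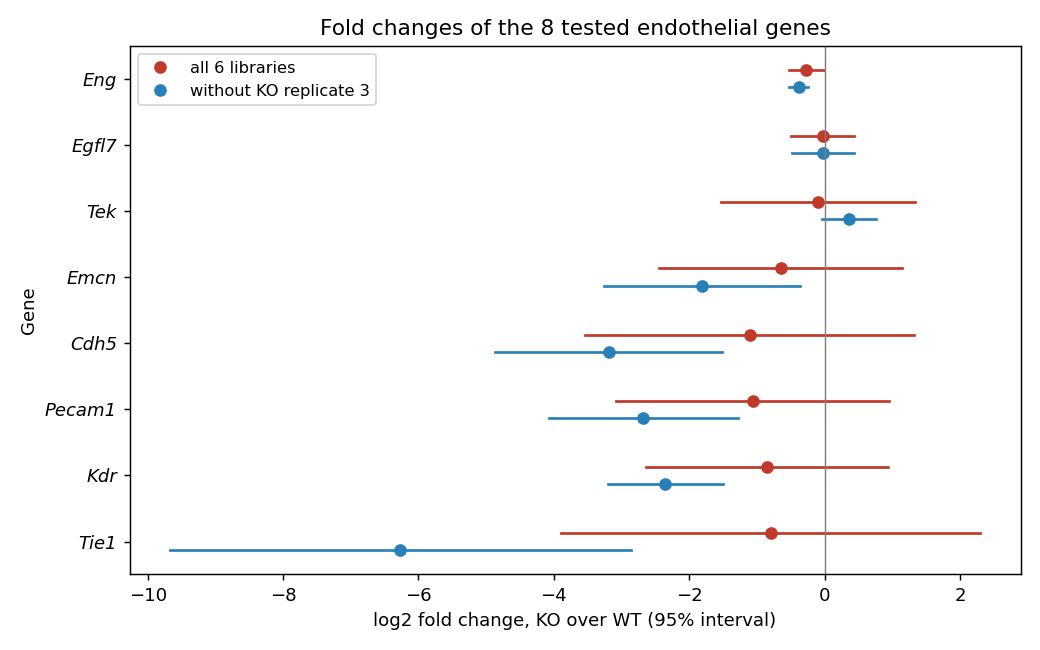
Log2 fold change of KO over WT with its 95% interval (horizontal axis) for the 8 tested endothelial genes, over all 6 libraries (red, upper) and without KO replicate 3 (blue, lower). All red intervals but that of Eng include 0, and the blue intervals of Eng, Emcn, Cdh5, Pecam1, Kdr and Tie1 lie below 0; Tie1 had 0 counts in both KO libraries of the blue fit, so its blue value depends on the prior count.

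Summing the 7 genes that stayed under 50 counts gives a steadier reading of each library. This group was set after the values were seen and gets no test. Together they had 20, 17 and 156 counts in KO replicates 1 to 3 (95% Poisson intervals 12.2 to 30.9, 9.90 to 27.2 and 133 to 183), against 164, 71 and 133 counts in WT replicates 1 to 3 (140 to 191, 55.5 to 89.6 and 111 to 158). These intervals, and the limit from a count of 0, cover counting error only. Scaled to depth, KO replicates 1 and 2 held 16.9% and 14.5% of the WT mean, and KO replicate 3 held 120.0%. WT replicate 2 held 60.1% of it, so the WT libraries also differed by more than counting error. Of all KO counts of these genes 80.8% came from KO replicate 3.

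Genes of other cell types moved with this pattern to differing degrees. Summed over 12 skeletal muscle markers, the level was 22.6, 21.4 and 297 CPM in KO replicates 1 to 3, against 869, 111 and 771 CPM in WT replicates 1 to 3. Over 12 macrophage markers it was 16.9, 17.0 and 146 CPM in KO and 372, 199 and 372 CPM in WT. Both lists were lowest in KO replicates 1 and 2 and lower in WT replicate 2 than in the other WT libraries, as were the 7 endothelial genes, but KO replicate 3 held 50.9% of the WT mean for muscle and 46.5% for macrophages. The defining marker Myod1 had 6, 6 and 151 counts in KO and 293, 26 and 249 in WT, and the pan-leukocyte Ptprc had 1, 3 and 48 counts in KO and 119, 62 and 105 in WT. Adipocyte markers were low in all 3 KO libraries (47.1, 44.0 and 51.8 CPM, against 918, 454 and 800 CPM in WT), KO replicate 3 included. Of their 10 tested genes 9 fell over all 6 libraries (edgeR adjusted p under 0.05), where 1.63% of all genes fell. The 9 calls were lost when KO replicate 1, KO replicate 2, WT replicate 1 or WT replicate 3 was left out. So were those of every other gene (0 of all genes called). Without KO replicate 3, 11 of 12 tested adipocyte genes fell, where 16.1% of all genes fell. Pericyte and smooth muscle markers summed to 1123 to 1204 CPM in KO and 1137 to 1403 CPM in WT, mostly from Acta2 (smooth muscle actin), Cspg4 and Pdgfrb. Acta2 was the most abundant of them in WT, with a mean of 470.6 CPM, against 245.7 CPM in KO. The means of Cspg4 (461.5 CPM in KO, 351.0 CPM in WT) and Pdgfrb (416.2 CPM in KO, 336.7 CPM in WT) went the other way. Of the 11 tested genes of this list edgeR called 0 over all 6 libraries, where 2.51% of all genes were called. Their median log2 fold change was -0.94, with 7 estimates below 0. Acta2 had 5580, 5164 and 3051 counts in KO and 8781, 7499 and 10462 in WT. For it, Notch3 and Cnn1, 3 of the 11 tested, every KO library lay below every WT library, which held for 14.5% of all genes tested. DESeq2 called these 3 lower over all 6 libraries (adjusted p = 0.0183, 0.0181 and 0.0106), where it called 4.93% of all genes lower. Without KO replicate 3, 5 of the 11 fell and 2 rose, where 16.1% of all genes fell and 12.5% rose. The part of these cell types in the endothelial values was not tested, and in bulk RNA fewer cells of a type and less RNA per cell cannot be told apart.

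Blood cells share some of these genes, Pecam1 and Esam in platelets among them. Summed over 6 platelet and megakaryocyte markers, the level was 9.44 to 14.2 CPM in KO and 10.7 to 12.4 CPM in WT, a sum carried mostly by Itga2b and Gp1bb. Gp9 was at 0 in 2 KO libraries. Pf4, a platelet chemokine, had 5, 6 and 7 counts in KO and 51, 14 and 49 in WT, with every KO library below every WT library (log2 fold change -2.63, edgeR adjusted p = 0.0692; DESeq2 adjusted p = 0.00442). Of the 3 tested platelet genes Pf4 alone was estimated lower, with Itga2b (log2 fold change 0.20) and Gp1bb (0.46) estimated higher. Pf4 and the pericyte and smooth muscle genes named above were chosen after their values were seen. Red cell markers were near 0, at no more than 0.346 CPM in KO and 0.407 CPM in WT over 5 genes, all of which were at 0 in at least 1 library. Of the muscle and macrophage lists, 0 of 12 and 2 of 11 tested genes fell over all 6 libraries (edgeR adjusted p under 0.05), where 1.63% of all genes fell. Without KO replicate 3 all 12 fell in each, where 16.1% of all genes fell. The 2 macrophage genes that fell over all 6 libraries were Cd14 (30, 28 and 42 counts in KO, 253, 133 and 286 in WT) and the complement gene C1qa (8, 3 and 5 in KO, 162, 83 and 170 in WT). Both were low in KO replicate 3 as well. Fibroblast markers were at 27690, 28230 and 9709 CPM in KO and 25890 to 31160 CPM in WT, so in KO replicate 3 they were low, as Tek was. Of their 9 tested genes 1 fell over all 6 libraries, where 1.63% of all genes fell. Of the 9 estimates 8 were below 0 (median -0.63). In 4 genes every KO library lay below every WT library, beside 14.5% of all genes. Without KO replicate 3, 3 of 10 rose and 4 fell, where 12.5% of all genes rose and 16.1% fell.

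**Figure D3:**
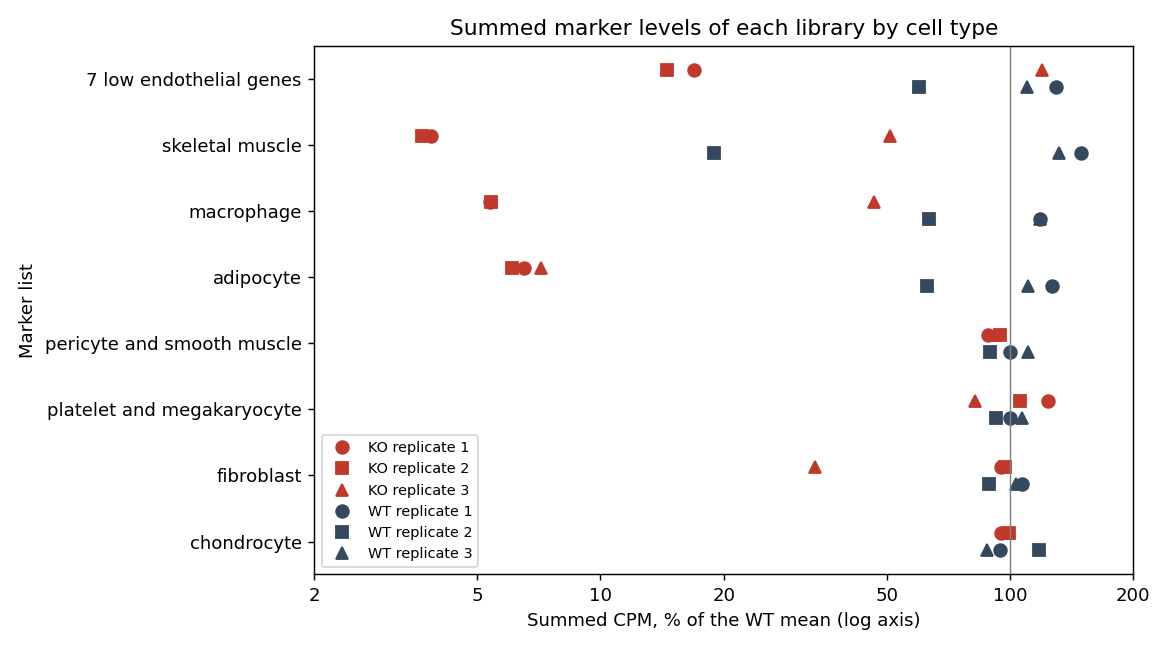
Summed CPM of each marker list as a percentage of its WT mean (horizontal log axis) in each library, KO (red, upper) and WT (dark, lower), with the marker shape giving the replicate number. The 7 low endothelial genes, muscle and macrophage lists share low values in KO replicates 1 and 2, and the adipocyte list was low in all 3 KO libraries (6.08% to 7.15%). The sum of the chondrocyte list, most of it Col2a1, lay between 87.9% and 118% throughout.

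The genes whose log2 CPM over the 6 libraries was most like the mean of the 8 tested members were ranked among 11894 genes outside them. The 10 highest Pearson correlations ran from 0.991 (Dusp4, a MAP kinase phosphatase) to 0.995 (Myom2, a myomesin of the muscle M-band). They included the muscle genes Myog, Acta1, Chrna1 and Pdlim3, the growth cone gene Gap43, the actin-binding Coro1c, the adhesion molecule Mcam, which is found on endothelium, pericytes and other cells, and Tgfb1, a ligand bound by endoglin's receptor complex. Myog, a muscle transcription factor, had 6, 6 and 245 counts in KO and 546, 62 and 439 counts in WT. Mcam had 67, 71 and 366 counts in KO and 437, 189 and 415 in WT. The correlations share the same 6 libraries and describe likeness only.

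The wider endothelial and angiogenic programme was counted over 9 further lists of 102 genes, of which 100 were in the table and 79 were tested. Of these 1 rose and 3 fell at an edgeR adjusted p under 0.05, and 75 were not called, beside the 0.884% and 1.63% of all genes. Vegfa, the main ligand of the VEGFR2 receptor, rose (204 ± 8.02 CPM in KO, 150 ± 6.84 CPM in WT; log2 fold change 0.45, SE 0.0693, adjusted p = 0.0375). Ecscr, an endothelial surface protein of cell migration, fell, with 10, 13 and 10 counts in KO and 58, 56 and 40 counts in WT (-2.20, SE 0.286, adjusted p = 0.0244). Icam1, a leukocyte adhesion molecule of many cell types, fell (24.4 ± 1.70 CPM in KO, 49.6 ± 7.07 CPM in WT; -1.03, SE 0.121, adjusted p = 0.0195), and Pdpn, podoplanin, a lymphatic marker that mesenchymal cells also express, fell (119 ± 1.65 CPM in KO, 153 ± 4.76 CPM in WT; -0.36, SE 0.0601, adjusted p = 0.0446; SD, n = 3 each). Ecscr was low in all 3 KO libraries, KO replicate 3 included. The median log2 fold change over the 79 genes was -0.01, beside 0.01 over all genes. Without KO replicate 3, 13 of 82 tested rose and 24 fell, where 12.5% of all genes rose and 16.1% fell, and the 4 genes named here were among those called. Leaving out KO replicate 1, KO replicate 2, WT replicate 1 or WT replicate 3 instead ended all 4 calls (0 of all genes tested were called then), and without WT replicate 2 there were 2 calls, both lower.

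By role, the ligands and receptors around the members were mostly not called, where 2.51% of all genes tested were called. Of 9 VEGF ligands and receptors Vegfa rose and 8 were not called. The receptors Flt1 (7, 3 and 26 counts in KO, 14, 10 and 31 in WT) and Flt4 (4, 6 and 27 in KO, 38, 30 and 44 in WT) were lowest in KO replicates 1 and 2. After scaling, Vegfc, Vegfd (929, 807 and 388 counts in KO, 768, 682 and 725 in WT), Nrp1 and Nrp2 were instead lowest in KO replicate 3. Vegfa, Vegfb and Pgf were highest there. Of 4 genes, the angiopoietins Angpt1, Angpt2 and Angpt4 and the TIE2 phosphatase Ptprb, edgeR called 0 over all 6 libraries. Angpt1, the agonist of TIE2, had 1190, 1159 and 236 counts in KO and 1180, 1054 and 1026 counts in WT, so it shared with Tek the low value in KO replicate 3. Angpt4 had 40, 38 and 39 counts in KO and 94, 68 and 102 in WT (log2 fold change -1.17, edgeR adjusted p = 0.0553, DESeq2 adjusted p = 0.00228). Every KO library of Angpt4 lay below every WT library, and without KO replicate 3 it fell (edgeR adjusted p = 0.0117). Of 11 tested co-receptors, ligands and targets of the endoglin pathway 0 were called. The most abundant were the target gene Id3 (182 ± 8.51 CPM in KO, 174 ± 6.59 CPM in WT) and the type II receptor Bmpr2 (95.4 ± 8.57 CPM in KO, 90.0 ± 2.43 CPM in WT). Acvrl1, the ALK1 receptor that endoglin assists, had 318, 378 and 84 counts in KO and 483, 355 and 447 in WT, and Bmp9 (Gdf2) had 0 counts in all libraries but KO replicate 3, which had 4. The target gene Id1 had 1332, 1224 and 2590 counts in KO and 1080, 1090 and 1051 in WT (log2 fold change 0.65, edgeR adjusted p = 0.236). After scaling every KO library of Id1 lay above every WT library, with KO replicate 3 highest. Without that library Id1 rose (0.30, edgeR adjusted p = 0.0105). In 5 of the 11 tested endoglin pathway genes every KO library lay above every WT library, beside 14% of all genes. Without KO replicate 3, of the 9 VEGF genes Vegfa and Vegfd rose and Flt4 fell (edgeR adjusted p under 0.05). Of the angiopoietins and Ptprb 0 rose and 1 fell, and of the 11 endoglin pathway genes 3 rose and 0 fell. In that fit 12.5% of all genes rose and 16.1% fell. The VEGF genes other than Vegfa, and Acvrl1, Gdf2 and Id1, were named after their values were seen.

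Transcription factors, Notch genes and other vessel markers gave 0 calls for 10 tested endothelial transcription factors, 0 for 6 Notch genes, 0 for 8 artery and vein genes, and the calls above among 13 junction genes (Icam1), 17 other pan-endothelial markers (Ecscr) and 5 lymphatic markers (Pdpn). Those calls are over all 6 libraries, where 2.51% of all genes tested were called. Without KO replicate 3, 2 of 11 tested transcription factors rose and 4 fell. Of 7 Notch genes 0 rose and 2 fell, and of 8 artery and vein genes 1 rose and 3 fell. Of 13 junction genes 2 rose and 7 fell, of 17 other pan-endothelial markers 3 and 5, and of 6 lymphatic markers 0 and 4. In that fit 12.5% of all genes rose and 16.1% fell. Among the lists with 0 calls over all 6 libraries, the most abundant transcription factors were Elk3 (87.3 ± 4.11 CPM in KO, 80.0 ± 4.48 CPM in WT, SD, n = 3 each), an ETS factor, and Ets1 (43.6 ± 9.70 CPM in KO, 38.8 ± 1.31 CPM in WT). The most abundant Notch gene was Notch1 (57.3 ± 5.65 CPM in KO, 52.4 ± 5.30 CPM in WT). Of the artery and vein genes they were the vein receptor Ephb4 (98.6 ± 1.04 CPM in KO, 84.7 ± 3.52 CPM in WT) and Efnb2 (64.85 ± 18.15 CPM in KO, 76.88 ± 1.15 CPM in WT). ERG, an ETS factor of endothelium that chondrocytes also express, had 189, 168 and 229 counts in KO and 251, 252 and 322 counts in WT (Erg, log2 fold change -0.50, edgeR adjusted p = 0.163). Of the 10 tested transcription factors 4 had estimates below 0, with a median of 0.15. In 4, Erg among them, every KO library lay below every WT library (14.5% of all genes tested). In 3 every KO library lay above (14% of all genes tested). Gata2 (0.84, edgeR adjusted p = 0.125) and Mecom (0.74, edgeR adjusted p = 0.0570) were among those 3. The other pan-endothelial markers did not move together in KO replicate 3. Vwf, von Willebrand factor, had 9, 19 and 152 counts in KO and 44, 19 and 32 in WT. It was higher in KO replicate 3 than in KO replicates 1 and 2, as were Tm4sf1 and Procr of the same list. Ramp2 (688, 599 and 195 counts in KO), Clec14a (363, 343 and 132) and S1pr1 (253, 278 and 87) of that list were instead lowest in KO replicate 3. Aqp1, a water channel of capillaries and of chondrocytes, had 8646, 8535 and 3048 counts in KO and 2699, 2555 and 2616 in WT, and was highest in KO replicates 1 and 2. Lymphatic Lyve1, too low to be tested, had 2, 1 and 0 counts in KO and 28, 9 and 22 in WT. Erg, Gata2, Mecom, Vwf, Tm4sf1, Procr, Ramp2, Clec14a, S1pr1, Aqp1 and Lyve1 were also named after their values were seen.

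At the transcript level Egfl7 came almost wholly from the third start window. The transcript that starts there, NM_001164564.1, took 94.9% of Egfl7 estimated counts in KO replicate 1, all of them in KO replicate 2 and 82.4% in KO replicate 3, and 84.8%, 97.6% and 89.5% in WT replicates 1 to 3, a mean of 92.4 ± 9.04% in KO and 90.6 ± 6.48% in WT (SD over 3 libraries each; exact permutation test, two-sided, p = 0.9). Its start lies 5574 bases downstream of the first and 2750 bases downstream of a start in the second window. Transcripts of window 2, which carries the AGGAAG matches printed above, took 6.10 ± 6.63% in KO and 3.35 ± 3.93% in WT (exact permutation p = 0.7), or 5.46, 0 and 14.3 estimated counts in KO and 6.67, 2.51 and 0 in WT. Window 1 had 0, 0 and 4.83 counts in KO and 6.53, 0 and 12.5 in WT. KO replicate 3 had the most counts from window 2, but these are few. The transcripts share their later exons, so the estimates rest on reads from the first exons and on the counting program, which is not given in the sources used here.

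Eng had 3 transcripts with counts, all starting within the one promoter at chr2:32646595-32646622. NM_007932.2 took 80.4%, 79.2% and 78.9% of Eng counts in KO and 73.1%, 75.6% and 77.6% in WT, so every KO library lay above every WT library by a small margin (79.5 ± 0.826% in KO, 75.5 ± 2.25% in WT, SD over 3 libraries each; exact permutation test, two-sided, p = 0.1, the smallest that 3 against 3 libraries allow, and 0.6 when adjusted over the 6 shares of Egfl7 and Eng). NM_001146348.1 took 13.4%, 13.9% and 17.7% in KO and 23.4%, 20.0% and 17.4% in WT (exact permutation p = 0.2), and NM_001146350.1 took 5.50 ± 1.89% in KO and 4.28 ± 0.749% in WT (exact permutation p = 0.4). None of the 6 shares could pass a threshold of 0.05 in this design. The 7 members under 50 counts had too few for shares to be read. Tek shares were not tested; its transcript NM_013690.3 took 59.7%, 51.3% and 0% of Tek counts in KO and all, 27.8% and 60.9% in WT, so the shares varied widely within each group.

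**Figure D4:**
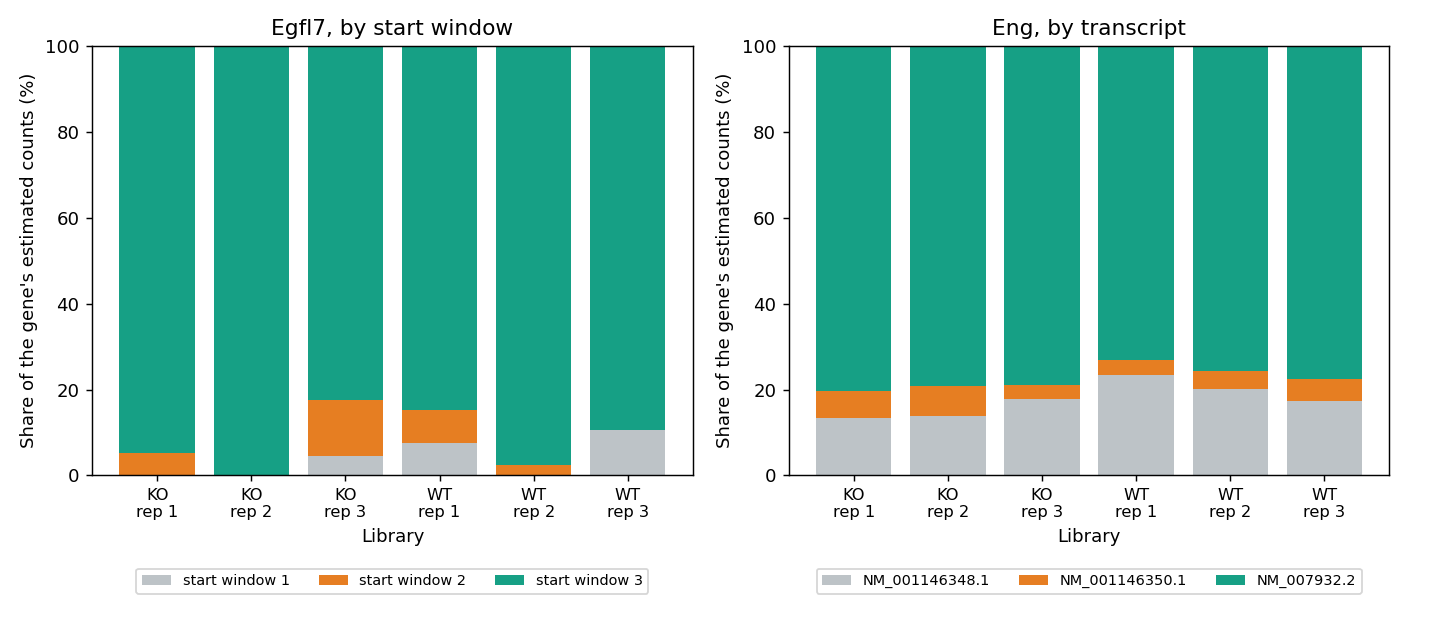
Share of each gene's estimated counts (vertical axis, percent) by start window for Egfl7 (left) and by RefSeq transcript for Eng (right) in each KO and WT library. Start window 3 took at least 82.4% of Egfl7 counts in each library, and NM_007932.2 took 78.9% to 80.4% of Eng counts in KO and 73.1% to 77.6% in WT.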

How the data were processed

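The authors deposited estimated counts, TPM values and FPKM values for genes (Entrez identifiers) and RefSeq transcripts; the FPKM values and the authors' deposited group means were not used. Per the labels' protocols, STAR aligned pairs to mm10 and featureCounts 2.0.0 counted GENCODE genes, which would not give such estimated counts, so which program, annotation and strand setting made them is not given in the sources used here.

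Estimated counts were rounded. R 4.3.3, edgeR 4.0.16 (filterByExpr, minimum count 10 and minimum total 15, TMM scaling, quasi-likelihood test without covariates, Benjamini-Hochberg over 13692 genes), limma 3.58.1 and DESeq2 1.42.0 were used. TMM factors entered every CPM value, and 2 was the prior count of log2 CPM. A standard error is the log2 fold change over the square root of F. The fit was tested on simulated data. Alternatives were other scalings, filters and tools, a replicate block, and libraries left out. The common dispersion was 0.0525.

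Members and lists were chosen with earlier results of these data known. All 10 members are named. From other lists, genes were drawn from up to 3 called genes in each direction or the 2 most abundant, and from the first 3 markers of other cell types. Not every gene under that rule is named, the adipocyte genes among those left out. Further genes are said to be chosen after their values were seen. All 10 members matched RefSeq genes of GRCm38.p6, 7 had promoter windows there, and transcript starts come from GENCODE of the same build.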

Additional observations from a re-analysis of the deposited data

How the results depend on the processing

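The count of 0 called endothelial genes stayed at 0 with limma-voom, with the Wald test of DESeq2, with scaling by DESeq2 size factors or by library size alone, with a filter of 1 count or of 1 CPM in all 6 libraries (3 members tested), and with the replicate block (1 of the 8 at an unadjusted p under 0.05). With each library left out in turn it was 0 to 5, the 5 without KO replicate 3, and with KO replicate 3 and WT replicate 2 both left out it was 6. The other endothelial and angiogenic genes, 4 called, had 12 calls with DESeq2, 0 with the replicate block, 0 to 37 with a library left out (2 without WT replicate 2, 37 without KO replicate 3, 0 without any of the others) and 49 with both left out. Over all genes, 344 called, the counts were 1171 with DESeq2, 5 with the replicate block, 0 to 3962 with a library left out and 5416 with both. Same-numbered KO and WT libraries deviated together at r = -0.143, 0.215 and 0.238, and replicate 1 did not correlate best with its own number, so the numbers do not pair the samples. The log2 fold change of Tek turned from -0.10 to 0.29 with both left out and ranged from -0.47 to 0.36 with 1 left out. That of Egfl7, -0.03 over all libraries, ranged from -0.165 to 0.0898 with 1 left out and was 0.0070 with both. The cause was not tested. Counts under 50 limit 7 of the 10 genes.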
